A study of Mus musculus with 8 samples.

Results

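The genes described here are the subunits of the linear ubiquitin ligase complex, the enzymes that cut its product, and partners that restrain the transcription factor NF-kB. They were taken as every row of the normalized array table whose gene symbol is Fam105b, Rnf31, Rbck1, Sharpin, Cyld, Tnfaip3, Tnip1 or Ikbkg. This gave 9 probe sets for 8 genes, of 21104 genes measured, with Fam105b represented by 2 probe sets. Fam105b, now called Otulin, was picked because it stood among the genes with the smallest p in the comparison of KO with WT made on these same arrays. The other 7 were added for their roles in the pathway, with earlier results of these data known. For all 8, the difference between KO and WT is therefore given as a description, with its error and without a test.

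Linear ubiquitin is a chain in which the last residue of one ubiquitin is joined to the first methionine of the next. The complex called LUBAC, made of HOIP, HOIL-1 and SHARPIN, is the ligase known to build it, and the chains hold the IKK kinase at activated receptors so that NF-kB can be switched on. OTULIN and CYLD cut these chains, while A20 and ABIN1 damp the signal downstream of tumour necrosis factor and Toll-like receptors. In mice, defects of the complex or of its deubiquitinases are known to cause inflammation or cell death, and A20 and CYLD have been linked to the maintenance of haematopoietic stem cells.

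RNA came from haematopoietic stem cells (HSCs) of untreated mice on a C57Bl/6 background, sorted from Kit-enriched marrow through a gate for LSK cells (no lineage marker, Sca-1 and Kit present) that were CD9 high, CD150 positive and CD48 negative. The 4 KO pools came from Vav-Cre;BMPR-II(fl/fl) mice, in which Cre recombinase, driven by the blood-cell promoter Vav, removes exons 4 and 5 of Bmpr2, the gene of a type II BMP receptor. The 4 WT pools came from littermates negative for Cre. Each pool combined bones of 3 mice, although the series' description counts 4 mice in each group, and each pool was hybridised to 1 Affymetrix array. All mice of the KO pools were fl/fl. WT pool 1 held 1 fl/fl and 2 fl/+ mice, WT pool 2 held 3 fl/+ mice, WT pool 3 held 1 mouse each of fl/fl, fl/+ and +/+, and WT pool 4 held 2 fl/fl mice and 1 fl/+ mouse. Vav-Cre was present in every KO pool and in no WT pool, so effects of the transgene and of losing Bmpr2 cannot be told apart. Ages of the mice are not given by the sources used.

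Values are log2 levels as the authors normalized them, a difference of 1 means a 2-fold change, and values of single pools are listed from pool 1 to pool 4. The arrays' medians lay between 5.58 and 5.69. Bmpr2 was 7.22, 6.64, 6.70 and 6.91 in the 4 KO pools and 8.09, 7.63, 7.05 and 7.83 in the 4 WT pools, a difference of -0.79 (SE 0.21, limma adjusted p = 0.967), with KO pool 1 above WT pool 3. Among transcripts of the gate, Kit ranged from 9.86 to 10.59 over the KO pools and from 10.14 to 10.56 over the WT pools, and Slamf1, which encodes CD150, from 6.81 to 7.56 and from 6.63 to 7.18. Cd48, which the gate selects against, ranged from 4.40 to 6.13 and from 4.12 to 5.52. WT pool 2 stood farthest from the other arrays, with a median correlation across genes of 0.982, against 0.985 to 0.987 for the others. Where leaving it out moved the difference of a named gene of the pathway lists, or of a marker list, by over 1.5 times, the value without it is given.

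The KO and WT pools overlapped for each of the 3 ligase subunits, and the mean of Sharpin was the only one to differ by more than 0.1. Rnf31 encodes HOIP, the catalytic subunit that forms the methionine linkage. Its level was 7.38, 7.53, 7.21 and 7.60 in the 4 KO pools and 7.49, 7.50, 7.34 and 7.46 in the 4 WT pools. The KO pools spanned the whole WT range, and the lowest values of both groups were in pool 3. The KO mean was 7.43 ± 0.17 against a WT mean of 7.45 ± 0.07 (SD, n = 4), which differ by -0.02 (SE 0.11) with a 95% interval from -0.27 to 0.23.

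Rbck1 encodes HOIL-1, a partner that stabilises HOIP and has ligase activity of its own. It was 7.69, 7.66, 7.64 and 7.87 in the 4 KO pools and 7.72, 7.53, 7.97 and 7.72 in the 4 WT pools. All KO values fell inside the range of the WT pools. The difference was -0.02 (SE 0.12), with a 95% interval from -0.28 to 0.24. For Rnf31 and Rbck1 these intervals leave room for a change of about 1.2-fold in either direction, so the data bound the difference and do not show that the levels were equal.

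Sharpin encodes the adaptor subunit whose loss causes chronic dermatitis in mice. It was 7.88, 7.97, 8.17 and 7.69 in the 4 KO pools and 8.14, 8.06, 8.27 and 8.04 in the 4 WT pools. KO pools 1, 2 and 4 were lower than all WT pools, and KO pool 3 was within the WT range. The KO mean was 7.93 ± 0.20 against a WT mean of 8.13 ± 0.10 (SD, n = 4), which differ by -0.20 (SE 0.12) with a 95% interval from -0.47 to 0.07. The difference was -0.28 without KO pool 3 and -0.12 without KO pool 4, so its size depended on these pools. Only KO pool 3 overlapped the WT pools, so leaving it out had to separate the groups.

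**Figure D1:**
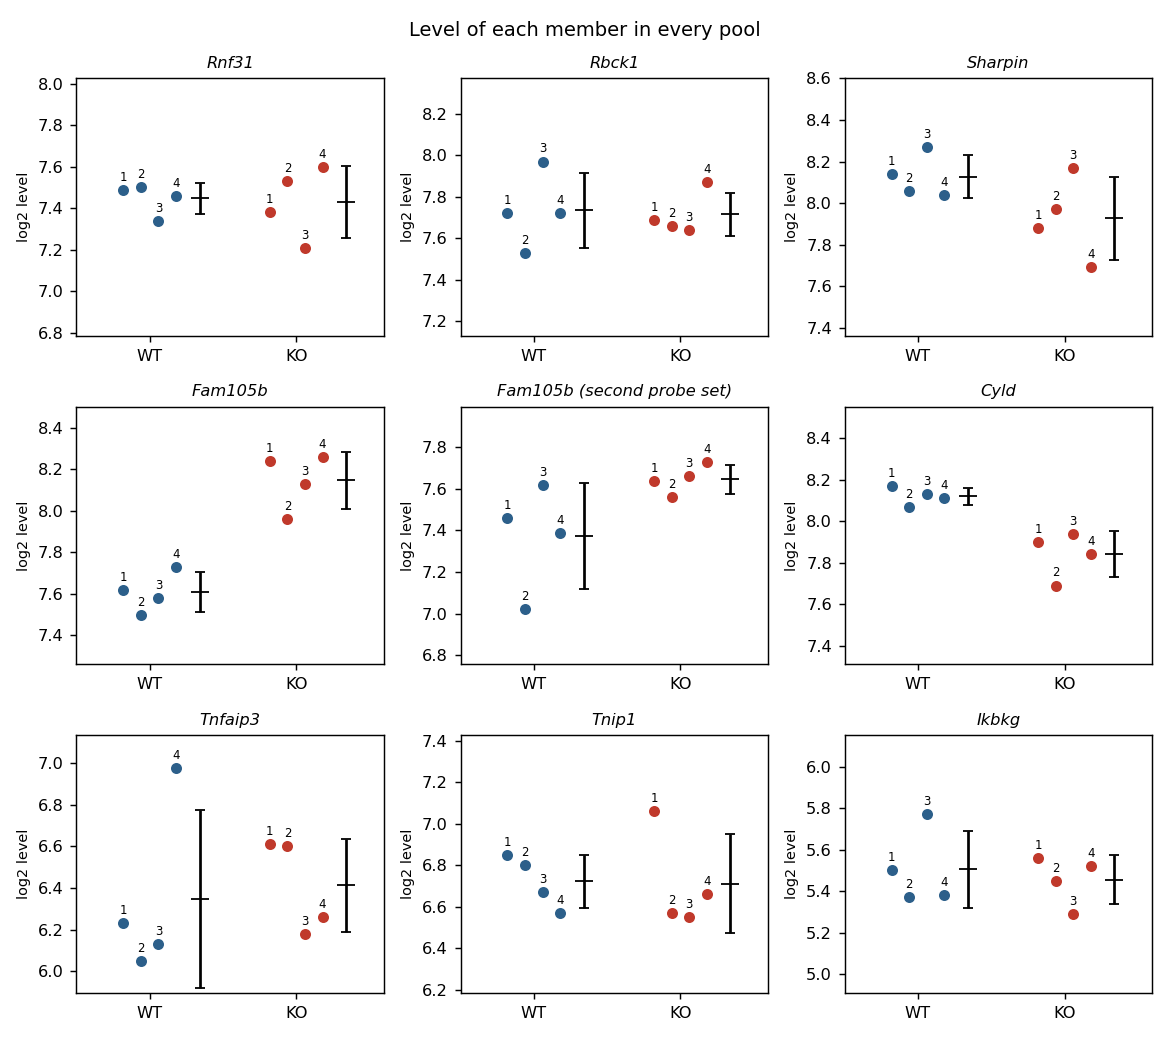
Log2 level of each member in every pool, 1 panel per probe set, with WT pools in blue, KO pools in red and the pool number above each point. Black bars give the mean and SD of 4 pools, and every panel spans the same number of log2 units. The KO and WT points are apart for Fam105b (first probe set) and Cyld and overlap in all other panels.

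Of the deubiquitinases that cut linear chains, Cyld was lower in every KO pool than in any WT pool. Fam105b, picked on this contrast, was higher in every KO pool than in any WT pool on the probe set with the higher mean. The groups overlapped on its second probe set. On the probe set kept for each gene, Fam105b and Cyld were the only members, 2 of 8, whose groups did not overlap, 1 in each direction. Over all genes the groups did not overlap for 2.58% (545 of 21104), with KO higher for 1.09% and KO lower for 1.5%. Fam105b was chosen on this contrast, so nothing is read from its place in that count. Limma called no gene at an adjusted p under 0.05, members included (0.0% called), and 960 genes, or 4.55%, had an unadjusted p under 0.05.

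Fam105b encodes OTULIN, a deubiquitinase of the OTU family that cuts only methionine-linked chains and binds HOIP directly. On the first probe set, the one with the higher mean, its level was 8.24, 7.96, 8.13 and 8.26 in the 4 KO pools and 7.62, 7.50, 7.58 and 7.73 in the 4 WT pools. The lowest KO pool, pool 2, lay 0.24 above the highest WT pool, pool 4. The KO mean was 8.15 ± 0.14 against a WT mean of 7.61 ± 0.09 (SD, n = 4), which differ by 0.54 (SE 0.11). As a ratio of KO to WT this is 1.46-fold (95% interval 1.23-fold to 1.72-fold). The authors' deposited table gives this row a signed fold of 1.46.

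The second probe set of Fam105b gave a smaller difference, with overlapping groups. Its level was 7.64, 7.56, 7.66 and 7.73 in the 4 KO pools and 7.46, 7.02, 7.62 and 7.39 in the 4 WT pools. WT pool 3 lay above KO pool 2, and the other 3 KO pools lay above every WT pool. In a limma fit over all probe sets the difference was 0.27 (SE 0.13), or 1.21-fold with a 95% interval from 0.989-fold to 1.48-fold. It was 0.16 without WT pool 2, the lowest of the WT pools on both probe sets, whereas the first probe set gave 0.51 without that pool. Without KO pool 2 it was 0.31 and without WT pool 3 it was 0.36. Only these pools overlapped, so leaving out either of them had to separate the groups. Averaging both probe sets gave 0.41 (SE 0.11).

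The gap between the probe sets, first minus second, was 0.60, 0.41, 0.47 and 0.54 over the KO pools and 0.16, 0.48, -0.04 and 0.34 over the WT pools. It was thus even across the KO pools and uneven across the WT pools. Of 1015 genes with exactly 2 probe sets, both pointed in the same direction in 69.5%, and the median distance between their differences was 0.09. For Fam105b that distance was 0.27, larger than in 83.7% of these genes. The exons that each probe set covers are not stated in the files, so which of them follows the full transcript was not tested.

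**Figure D2:**
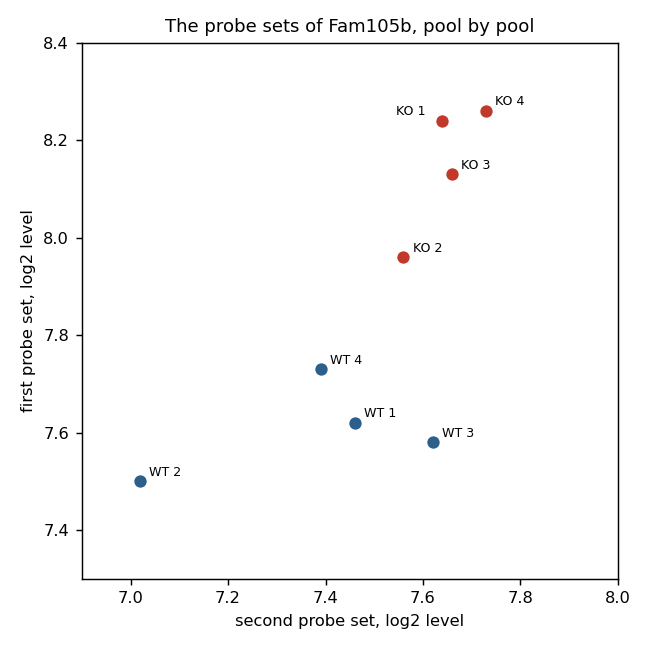
Log2 level of Fam105b in each pool on the second probe set (horizontal) and the first (vertical), drawn at equal scale, with KO in red and WT in blue. The vertical axis separates the groups, whereas on the horizontal axis WT pool 3 at 7.62 passes KO pool 2 at 7.56, and WT pool 2 at 7.02 stands to the left.

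Cyld encodes a deubiquitinase that cuts both methionine-linked and lysine-63-linked chains and is brought to LUBAC through SPATA2. It was 7.90, 7.69, 7.94 and 7.84 in the 4 KO pools and 8.17, 8.07, 8.13 and 8.11 in the 4 WT pools. The WT pools lay within 0.11 of each other, and the highest KO pool, pool 3, was 0.13 below the lowest WT pool. The KO mean was 7.84 ± 0.11 against a WT mean of 8.12 ± 0.05 (SD, n = 4), which differ by -0.28 (SE 0.10), or 1.21-fold lower in KO with a 95% interval from 1.04-fold to 1.42-fold. The 8 settings that left out 1 pool gave differences between -0.31 and -0.23. Groups that are apart with all pools stay apart when a pool is left out, so nothing is read from that. The spread of Cyld within groups, an SD of 0.0833, was smaller than that of all but 3.52% of genes.

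The promoters of Fam105b and Cyld, from RefSeq, are shown because these members had groups that did not overlap on the probe set kept for each gene. Each runs from 250 bases before the annotated start to 50 bases after it in build GRCm38.p6. Capitals mark the GC box GGGCGG on either strand, which 35.7% of 32851 mouse promoter windows of this length contain. The Fam105b (Otulin) window is chr15:27630644-27630943 on the minus strand, with 3 matches, and the Cyld window is chr8:88696778-88697077 on the plus strand, with 2. GC boxes are not particular to these members. The windows at the first listed start of Rnf31, Rbck1, Tnfaip3, Tnip1 and Ikbkg held 2, 2, 3, 1 and 2 matches. They are left unmarked in the windows of Tnfaip3 and Tnip1 shown further below.
Fam105b: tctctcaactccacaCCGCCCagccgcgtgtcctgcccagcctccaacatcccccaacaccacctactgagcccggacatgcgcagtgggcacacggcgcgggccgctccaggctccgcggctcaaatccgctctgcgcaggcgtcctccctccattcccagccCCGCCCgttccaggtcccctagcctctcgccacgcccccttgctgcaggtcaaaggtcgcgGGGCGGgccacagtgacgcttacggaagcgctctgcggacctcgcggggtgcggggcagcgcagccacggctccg
Cyld: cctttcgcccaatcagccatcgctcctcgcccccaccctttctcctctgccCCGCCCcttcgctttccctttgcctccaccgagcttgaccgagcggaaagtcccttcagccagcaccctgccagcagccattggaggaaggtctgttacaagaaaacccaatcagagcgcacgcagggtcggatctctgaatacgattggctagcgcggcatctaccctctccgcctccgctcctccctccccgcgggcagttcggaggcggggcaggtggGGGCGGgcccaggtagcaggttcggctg

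The partners that restrain NF-kB, and the regulatory subunit that reads linear chains, had overlapping groups. Tnfaip3 encodes A20, an enzyme that edits ubiquitin on signalling proteins and is itself induced by NF-kB. Its level was 6.61, 6.60, 6.18 and 6.26 in the 4 KO pools and 6.23, 6.05, 6.13 and 6.98 in the 4 WT pools. WT pool 4 was the highest of all, WT pools 2 and 3 lay below every KO pool, and WT pool 1 exceeded KO pool 3 only. The difference was 0.07 (SE 0.20), and without WT pool 4 it was 0.28 (SE 0.14). With an SD within groups of 0.342, larger than that of 90.7% of genes, Tnfaip3 was the most variable member.

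WT pool 4 also had the highest mean of 26 immediate early and sorting stress genes, the transcripts such as Fos and Dusp2 that cells switch on within minutes of handling. Relative to each gene's mean over the 8 pools, this list was at 0.50 in WT pool 4 and between -0.17 and 0.05 in the other pools. A list of 27 NF-kB target genes was at 0.00 in WT pool 4, at -0.18 in KO pool 2, at 0.18 in KO pool 4 and between -0.04 and 0.07 elsewhere. Tnfaip3 was highest in the pool with the highest early genes, which is a single pool. The early and NF-kB target lists are not separate, as both hold Junb, Ier3 and Gadd45b. The part of handling or of NF-kB in the level of Tnfaip3 was not tested.

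**Figure D3:**
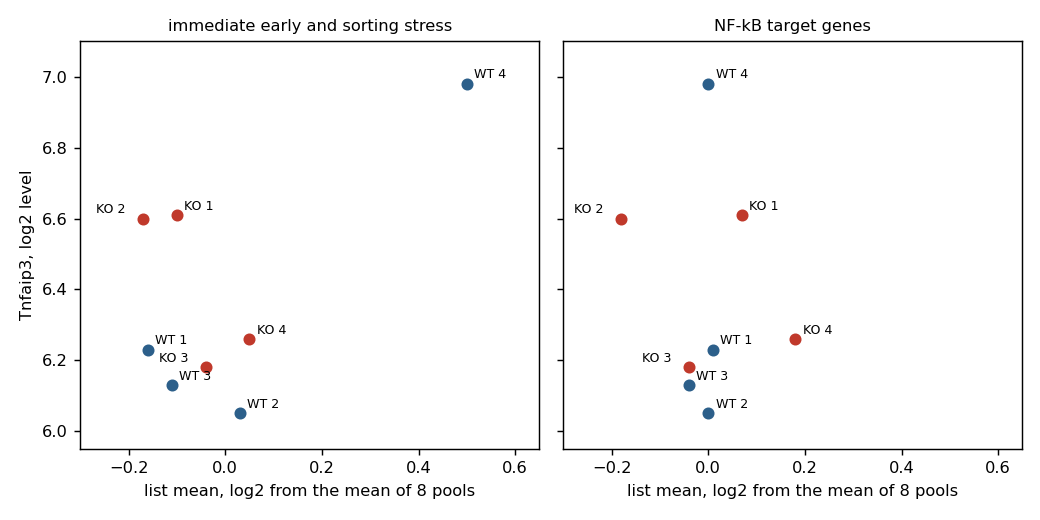
Log2 level of Tnfaip3 in each pool against the mean of 26 immediate early genes (left) and of 27 NF-kB target genes (right), each as the log2 distance from the gene's mean over the 8 pools, with KO in red and WT in blue. WT pool 4, with Tnfaip3 at 6.98, lies at 0.50 on the left axis and at 0.00 on the right axis.

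Tnip1 encodes ABIN1, a ubiquitin-binding partner of A20. It was 7.06, 6.57, 6.55 and 6.66 in the 4 KO pools and 6.85, 6.80, 6.67 and 6.57 in the 4 WT pools. KO pool 1 was above every WT pool and the other KO pools lay at the lower end of the WT range or just below it. The difference was -0.01 (SE 0.13), with a 95% interval from -0.31 to 0.28, and it was -0.13 without KO pool 1.

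Ikbkg encodes NEMO, the regulatory subunit of the IKK kinase, which binds linear chains and is also modified by them. It was 5.56, 5.45, 5.29 and 5.52 in the 4 KO pools and 5.50, 5.37, 5.77 and 5.38 in the 4 WT pools. WT pool 3 was highest and KO pool 3 lowest, with the others in between and mixed. The difference was -0.05 (SE 0.12), with a 95% interval from -0.32 to 0.22. Ikbkg was the only member whose mean lay below the median of all genes' means, 5.80, a range in which the normalization compresses differences.

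The promoters of Tnfaip3 and Tnip1 are shown because they are the members with a match to an NF-kB motif. Capitals mark the 9-letter motif GGAANTNCC on either strand. The Tnfaip3 window is chr10:19015361-19015660 on the minus strand. It has matches that begin 24 and 12 bases before the annotated start and 33 bases after it. The Tnip1 window is chr11:54962891-54963190 on the minus strand, where a palindrome gives 2 overlapping matches, 1 per strand, that begin 57 and 56 bases before the start.
Tnfaip3: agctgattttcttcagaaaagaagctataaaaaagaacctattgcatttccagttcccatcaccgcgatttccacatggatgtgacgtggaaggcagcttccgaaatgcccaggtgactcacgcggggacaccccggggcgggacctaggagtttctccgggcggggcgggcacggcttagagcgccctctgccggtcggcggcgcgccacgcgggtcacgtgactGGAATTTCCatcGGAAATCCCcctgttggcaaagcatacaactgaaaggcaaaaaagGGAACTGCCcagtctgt
Tnip1: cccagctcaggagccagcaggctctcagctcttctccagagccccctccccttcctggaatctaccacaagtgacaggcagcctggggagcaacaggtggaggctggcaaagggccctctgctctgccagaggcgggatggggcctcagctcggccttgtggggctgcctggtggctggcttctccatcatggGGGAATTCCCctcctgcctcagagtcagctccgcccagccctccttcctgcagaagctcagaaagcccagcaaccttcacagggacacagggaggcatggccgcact

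The motif was found in 4.71% of the 32851 promoter windows. Counted by gene, it was in a window of 2 of the 7 members with a promoter entry, of 8 of 21 NF-kB target genes and of 5.44% of all 27025 genes. RefSeq lists a second start for Tnfaip3 and for Rbck1, and 4 for Ikbkg, and none of these further windows held a match. A match describes letters in the sequence and not binding.

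**Figure D4:**
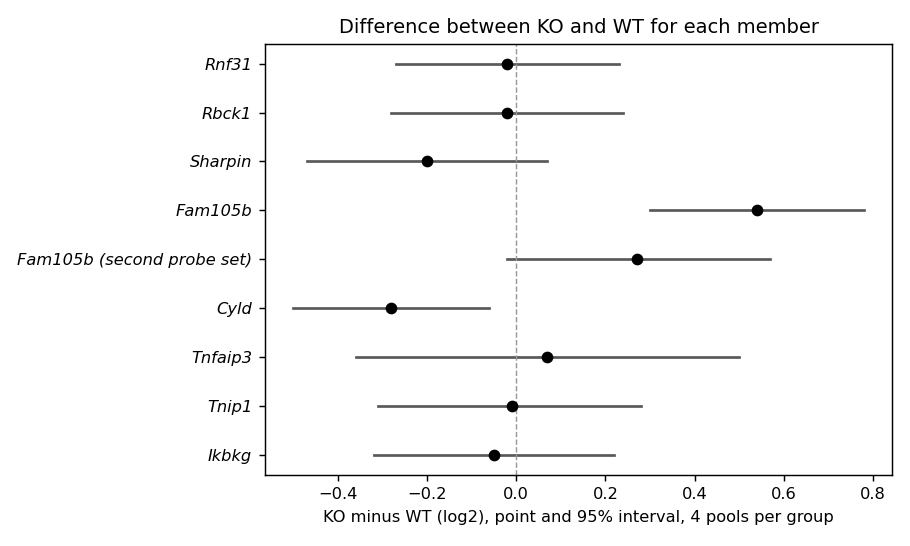
Difference between KO and WT for each member in log2 units, with the 95% interval of the limma fit, 4 pools per group. The interval runs from 0.30 to 0.78 for the first probe set of Fam105b, which was chosen on this contrast, and from -0.50 to -0.06 for Cyld.

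Taken as a list, 2 of the 8 members had a higher and 6 a lower mean in KO, with a median difference of -0.018 against -0.004 over all genes. For 5 of the 8, Rnf31, Rbck1, Tnip1, Ikbkg and Tnfaip3, the difference was under 0.1 in size, as it was for 50.7% of all genes. The members' pools did not vary together in any uniform way. After each group's mean was subtracted, the 28 pairs of members had correlations over the 8 pools between -0.85 and 0.82 with a median of 0.02. The highest was that of Rbck1 with Ikbkg (r = 0.82), the lowest that of Rnf31 with Sharpin (r = -0.85), which encode subunits of one complex, and Fam105b with Cyld had r = 0.59. All pairs share the same 8 arrays, and these values are descriptions.

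By the same measure, the genes whose pattern within groups was most like that of Fam105b, among 9485 genes above the median level, were Pld3, a phospholipase D family gene (r = 0.98), Nedd4, a ubiquitin ligase gene (r = 0.98), Gabpa, an ETS transcription factor gene (r = 0.98), and Hipk3, a kinase gene (r = 0.97). The lowest were Fanca, a DNA repair gene (r = -0.95), and Phlpp2, a phosphatase gene (r = -0.97). They are the extremes of 9485 genes over 8 pools and are given as a description. Their differences between KO and WT ran from -0.08 for Phlpp2 to 0.26 (SE 0.12) for Gabpa, with limma adjusted p between 0.967 and 1.0.

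Genes next to Fam105b on chromosome 15 had differences between -0.07 and 0.17. Fam105a, now Otulinl, is a neighbouring paralog that lacks deubiquitinase activity. It averaged 5.42 ± 0.20 over the KO pools against 5.47 ± 0.16 over the WT pools (SD, n = 4), which differ by -0.06 (SE 0.13, limma adjusted p = 0.981). The other measured neighbours, Fbxl7, Ank and Trio, differed by 0.02 (SE 0.14), 0.17 (SE 0.11) and -0.07 (SE 0.12), with limma adjusted p of 0.995, 0.967 and 0.980. Bmpr2 itself lies on another chromosome, and effects of chromosomal position on Fam105b were not tested.

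The rest of the pathway gave no called gene. In 7 lists that hold 109 distinct genes outside the members, limma called 0 at an adjusted p under 0.05, and 4 had an unadjusted p under 0.05, or 3.67% against 4.55% over all genes. That number ranged from 1 to 8 when single pools were left out, with 8 without KO pool 2, 1 without KO pool 4 and 2 without WT pool 3 or WT pool 4. The groups overlapped for all 109 genes, and over all genes they did not overlap for 2.58% (545 of 21104). Of these genes 61 had a higher and 48 a lower mean in KO, with a median difference of 0.015.

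**Figure D5:**
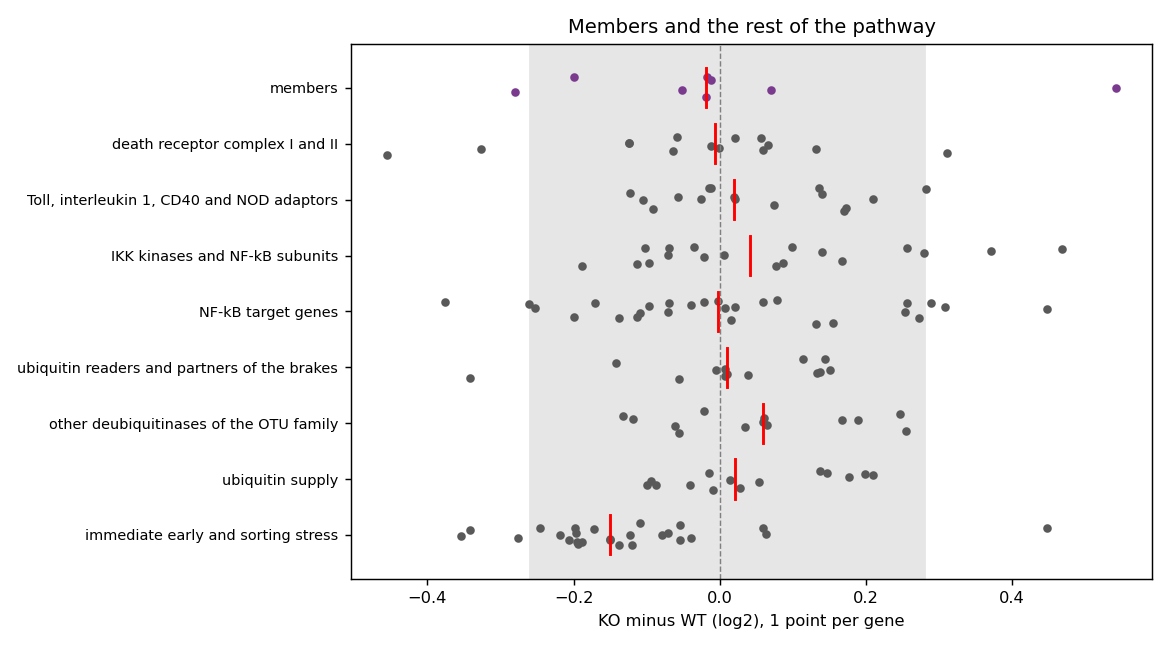
Difference between KO and WT in log2 units for the 8 members and for each list of the pathway and of early genes, 1 point per gene, with the list's median as a red line. The grey band, from -0.26 to 0.28, holds 90% of all genes. Fam105b at 0.54 and Cyld at -0.28 lie outside the band, and the medians of the pathway lists lie between -0.01 and 0.06.

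Among 14 genes of the death receptor complexes, through which tumour necrosis factor signals, 6 had a higher and 8 a lower mean in KO, with a median of -0.01. Ripk3, a kinase of necroptosis, averaged 7.57 ± 0.20 over the KO pools against 7.26 ± 0.15 over the WT pools (SD, n = 4), which differ by 0.31 (SE 0.13). Tnfrsf1b, which encodes the second receptor for tumour necrosis factor, differed by -0.45 (SE 0.22), or -0.29 without WT pool 2, and Xiap, which encodes an inhibitor of apoptosis, by -0.33 (SE 0.21). Each of these had a limma adjusted p of 0.967, as had every other gene named in this and the next paragraphs on the pathway.

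Among 16 adaptors of Toll-like, interleukin 1, CD40 and NOD receptors, 9 were higher and 7 lower, with a median of 0.02, and Bcl10 and Ticam1 were among the 3 with the largest statistics. Bcl10, an adaptor that links antigen receptors to NF-kB, differed by 0.28 (SE 0.13). Among 18 IKK kinases, NF-kB subunits and inhibitors, 10 were higher and 8 lower, with a median of 0.04. Rela, which encodes the p65 subunit of NF-kB, was 8.80, 8.42, 8.74 and 8.86 in the KO pools and 8.65, 7.97, 8.22 and 8.10 in the WT pools. Only WT pool 1 reached into the KO range, and the difference was 0.47 (SE 0.16). Tab2, which encodes a reader of lysine-63-linked chains, differed by 0.28 (SE 0.12), and Nfkbib, an inhibitor gene, by 0.37 (SE 0.18), or 0.20 without WT pool 2.

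Of 27 NF-kB target genes 13 had a higher and 14 a lower mean, with a median of 0.00. Icam1, an adhesion receptor gene, differed by 0.29 (SE 0.15), Nfkbia, which encodes the inhibitor IkB-alpha, by 0.26 (SE 0.15), or 0.17 without WT pool 2, and Nfkbiz, which encodes a nuclear co-regulator, by -0.38 (SE 0.22). Of 13 ubiquitin readers and partners of the brakes 9 were higher and 4 lower, with a median of 0.01, and the largest statistics were those of Tnip3 (-0.34, SE 0.27), Spata2l (-0.14, SE 0.12) and Rhbdf2 (0.13, SE 0.12). Tnip3 is related to Tnip1. Of 13 other deubiquitinases of the OTU family 8 were higher and 5 lower, with a median of 0.06, and Vcpip1 (0.25, SE 0.13), Otud6b (0.19, SE 0.14, or 0.09 without WT pool 2) and Otud7a (-0.13, SE 0.10) had the largest statistics. Of 14 genes that supply ubiquitin, its activating enzymes and its carriers 8 were higher and 6 lower, with a median of 0.02 and with Uba6 (0.20, SE 0.14, or 0.10 without WT pool 2), Ube2d3 (0.21, SE 0.15) and Ube2v1 (0.18, SE 0.15) first.

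In the list of 26 early genes, 3 had a higher and 23 a lower mean in KO, with a median of -0.15, or -0.02 without WT pool 4 (12 higher, 14 lower). Dusp2, a phosphatase gene, averaged 7.76 ± 0.10 over the KO pools against 8.10 ± 0.16 over the WT pools (SD, n = 4), which differ by -0.34 (SE 0.11), and all KO pools lay below all WT pools. Fosb differed by -0.35 (SE 0.18) and Fos by -0.28 (SE 0.18), both with WT pool 4 highest.

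Lists of genes used as markers of other marrow cells overlapped between the groups. The mean of 10 neutrophil and monocyte markers lay between 6.53 and 7.66 in KO pools and between 6.17 and 7.43 in WT pools, with 8 of 10 higher in KO. The 6 erythroid markers, all with a higher mean in KO, lay between 6.59 and 7.22 and between 6.17 and 7.00, and the 6 megakaryocyte markers, all with a higher mean in KO, between 8.33 and 8.84 and between 7.90 and 8.65. Means of 6 T cell markers ranged from 4.65 to 4.82 in KO pools and from 4.72 to 4.85 in WT pools, those of 6 B cell markers between 4.75 and 4.90 and between 4.74 and 5.02, and those of 6 macrophage markers between 5.22 and 6.12 and between 5.09 and 5.96. Those of 4 endothelial markers lay between 5.80 and 6.27 and between 5.86 and 6.06, and those of 4 stroma markers between 5.03 and 5.52 and between 4.95 and 5.25. Relative to each gene's mean over the 8 pools, the neutrophil and monocyte list was lowest in WT pool 2, at -0.78, and highest in KO pool 2, at 0.71, each the lowest pool of its group on both Fam105b probe sets. The erythroid list was at -0.65 in WT pool 2 and at 0.41 in KO pools 2 and 3. Without WT pool 2, the mean difference went from 0.35 to 0.14 for the neutrophil and monocyte list (7 of 10 higher in KO) and from 0.29 to 0.12 for the erythroid list (5 of 6 higher). The 6 macrophage markers went from 0.06 to -0.00. The 5 markers of the sorting gate, which include Cd48 although the gate selects against it, went from 0.04 to -0.10. The 5 gate markers averaged between 7.82 and 8.35 in KO pools and between 7.57 and 8.16 in WT pools. The other lists moved by less than 1.5 times without WT pool 2. The megakaryocyte list went from 0.26 to 0.23 (6 of 6 higher) and the stroma list from 0.19 to 0.21. The endothelial list went from 0.10 to 0.07, the T cell list from -0.06 to -0.05, and the B cell list stayed at -0.07. The KO range was higher at both ends for the megakaryocyte, neutrophil and monocyte, erythroid, macrophage, stroma and gate lists. It was not for the T cell, B cell and endothelial lists. Whether the marker transcripts came from other cells or from the stem cells themselves was not tested. Nor was the part of other cells in the members' values. In bulk RNA a change in the share of cells and in RNA per cell cannot be told apart.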

How the data were processed

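Expression was measured on Affymetrix arrays in 4 KO and 4 WT pools. The authors deposited log2 levels, made with RMA in Affymetrix Expression Console 1.3 per the submitters' processing notes. RMA corrects background, evens the distributions and summarizes the probes of a probe set, which can hide shared shifts and compresses dim probe sets. RNA was amplified by single primer isothermal amplification, per the labels' protocols. The deposited table also holds the authors' signed fold change and unadjusted p-value of KO against WT. Probe set build and annotation: not given in the sources used here. The number of arrays limits the precision.

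Of 28853 probe sets, 23586 had 1 symbol. The probe set with the highest mean was kept for each of 21104 genes, of which 1351 had several. Fits used R 4.3.3 and limma 3.58.1 (lmFit, eBayes, no covariate), with Benjamini-Hochberg adjustment over all genes and a threshold of 0.05, and were tested on simulated data. Intervals are 95% intervals of the moderated fit. The members and lists were chosen with earlier results of these data known. Named genes are the members, Bmpr2, the 3 largest absolute t per list (1 of these genes is not reported here), the 4 highest and 2 lowest correlations to Fam105b above the median level (predicted genes and small RNAs left out), its paralog and its 2 measured neighbours on each side. List symbols were matched through a mouse gene table of GRCm38.p6, which has no entry in the array table for Hspa1b and Trac. Promoter sequences are from RefSeq on the same build.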

Additional observations from a re-analysis of the deposited data

How the results depend on the processing

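Across 18 alternative settings, 1 of them for Fam105b only, the members' differences moved by less than 1 SD between pools in 134 of 136 comparisons, and both exceptions concern Fam105b. Several settings could not move a difference of group means. These were the level filters, the changed variance prior, the replicate block and the second deposited copy of the values. Averaging probe sets could not move members with 1 probe set. The same values in these settings are therefore no sign of stability. Its difference of 0.54 was 0.41 as the mean of its probe sets and 0.27 on the second probe set, an alternative chosen after the data were examined, as was leaving WT pool 2 out of the named pathway genes and marker lists. With single pools left out, the differences ranged from 0.50 to 0.60 for Fam105b, -0.31 to -0.23 for Cyld, -0.28 to -0.12 for Sharpin, -0.03 to 0.28 for Tnfaip3, -0.13 to 0.04 for Tnip1, -0.10 to 0.04 for Ikbkg, -0.09 to 0.06 for Rbck1 and -0.07 to 0.05 for Rnf31. Before rounding, the sign changed in 17 comparisons, all for members other than Fam105b, Cyld and Sharpin. A further quantile normalization gave 0.48 for Fam105b and -0.34 for Cyld, and centring on the arrays' medians 0.58 and -0.25.

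Limma called 0 genes in every setting run but 1. The main fit tested 21104 genes and the level filters left 10552 and 15828. At an unadjusted p under 0.05 there were 960 in the main fit and from 658 to 1356 without single pools. There were 511 among genes above the median level, where fewer genes were tested. With the replicate number as a block limma called 2, 7120432I05Rik and Tjp1, neither a member, with 1689 at an unadjusted p under 0.05. Under the block the smallest adjusted p among members was 0.544, for Fam105b. Same-numbered pools correlated in their deviations from the group means with r of 0.287, 0.213, 0.305 and 0.0623, each the highest for its pools, a hint from the data that the labels do not explain. The authors' deposited p-values, adjusted, gave 0. The pathway lists had 0 called genes throughout, and 2 at an unadjusted p under 0.05 among genes above the median level.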
